A study of Mus musculus with 6 samples.

Results

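Hepatokines are proteins that the liver secretes into the blood and that act on metabolism in other tissues. The 9 hepatokine genes described here are *Fgf21*, *Angptl4*, *Angptl6*, *Ahsg*, *Fetub*, *Lect2*, *Gdf15*, *Inhbe* and *Rbp4*. They were found by gene symbol among the 23282 rows of the count files, and all 9 passed the filter on low counts that left 14076 genes for testing. Messenger RNA of whole liver was sequenced from 12-week-old mice, C57BL/6 by the labels and male C57BL/6N by the study's methods, after a 24 h fast followed by 24 h of access to normal chow. Both genotypes carried the floxed *Tcf7l2* allele (*Tcf7l2* f/f). The 3 wild-type (WT) mice had no Cre, and the 3 mice of the knockout group (KO, *Alb-Cre;Tcf7l2* f/f) also carried Cre recombinase driven by the albumin promoter. That promoter works in hepatocytes, and the study describes the deletion as hepatocyte-selective. Whether the other cells of the liver keep the gene was not measured here. The libraries are called by genotype and the number in their labels, WT 7-2, WT 8-1 and WT 8-3 against KO 7-2, KO 7-3 and KO 8-3. The comparison asks which of these secreted products differ in mRNA level when hepatocytes lack TCF7L2, the transcription factor through which β-catenin acts on Wnt target genes.

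Hepatocytes make most hepatokines as secreted proteins with a signal peptide, and the liver adjusts several of them to feeding, fasting and cell stress. FGF21 signals through FGF receptors with the co-receptor β-Klotho, ANGPTL4 inhibits lipoprotein lipase, GDF15 acts on the brainstem through GFRAL, and activin E, the product of *Inhbe*, acts on adipose tissue. Fetuin-A (*Ahsg*), fetuin-B (*Fetub*), LECT2 and retinol-binding protein 4 (*Rbp4*) are abundant plasma proteins that have been linked to insulin resistance and fatty liver.

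The upstream sequences of 4 of the genes are shown because they hold letters bound by factors named below. RefSeq promoter windows of GRCm38.p6, from 250 bases before a start site to 50 after it, were at hand for 8 of the 9 genes, in 11 windows, with no entry for *Angptl4*. Each sequence is given 5′ to 3′ on the strand of its gene and ends at the base before the outermost start site. Capitals mark the letters ATCAAAG, which TCF/LEF factors bind, TTGCATCA, the composite element of ATF4 and C/EBP factors, and CACGTG, an E-box. The search covered both strands, and none of the matches overlapped another.
*Lect2*, chr13:56548560-56548728, minus strand: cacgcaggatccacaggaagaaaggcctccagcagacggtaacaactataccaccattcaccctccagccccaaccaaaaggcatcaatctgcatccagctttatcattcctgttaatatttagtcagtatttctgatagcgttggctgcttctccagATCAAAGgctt
*Rbp4*, chr19:38125322-38125511, minus strand: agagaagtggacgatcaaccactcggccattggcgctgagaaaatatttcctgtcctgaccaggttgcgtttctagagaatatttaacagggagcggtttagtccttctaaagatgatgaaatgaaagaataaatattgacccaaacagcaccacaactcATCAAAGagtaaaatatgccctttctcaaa
*Fgf21*, chr7:45615491-45615680, minus strand: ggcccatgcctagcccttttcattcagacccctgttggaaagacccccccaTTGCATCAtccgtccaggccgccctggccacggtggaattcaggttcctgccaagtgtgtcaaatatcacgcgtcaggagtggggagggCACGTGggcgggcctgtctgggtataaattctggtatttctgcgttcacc
*Inhbe*, chr10:127351849-127352038, minus strand: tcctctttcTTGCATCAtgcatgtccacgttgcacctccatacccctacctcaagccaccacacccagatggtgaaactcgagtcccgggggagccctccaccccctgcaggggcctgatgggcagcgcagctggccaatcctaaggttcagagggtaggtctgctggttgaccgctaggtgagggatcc

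In the *Lect2* window, ATCAAAG stood from −32 to −26 relative to the start site of the window. In the *Rbp4* window it stood from −30 to −24 of the outer of 2 start sites, which lies 510 bases upstream of the other. The 2 windows with ATCAAAG can be set against 3.73% of all 32851 promoter windows of the same 300 bases. TTGCATCA stood from −139 to −132 in the *Fgf21* window and from −181 to −174 in the *Inhbe* window, and 0.895% of all windows held it. CACGTG stood from −50 to −45 in the *Fgf21* window and from −83 to −78 in the inner of 2 *Gdf15* windows, against 7.15% of all windows. The windows of *Ahsg*, *Fetub* and *Angptl6* held none of these letters. Such a match describes the sequence alone, and no binding was measured.

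The 6 libraries held 60619938 to 133384586 counts. The 21 genes of the major urinary protein (*Mup*) family took 33.4 to 56.3% of the counts in WT libraries and 19.5 to 30.2% in KO libraries, so levels are given as CPM, counts divided by the library size in units of 1000000 after scaling that size by TMM factors. The 9 hepatokine genes together took 0.300 to 0.647% of the counts in WT and 0.571 to 0.731% in KO libraries, and their summed CPM ran from 4785 to 6555 and from 4523 to 5718. *Tcf7l2* itself was at 4.88, 6.13 and 6.85 CPM in WT 7-2, WT 8-1 and WT 8-3 and at 3.31, 2.74 and 3.33 CPM in KO 7-2, KO 7-3 and KO 8-3 (log2 fold change −0.93, SE 0.19, adjusted *p*=0.0856 with edgeR and 0.00274 with DESeq2). Counts over the whole gene still include transcripts that lack only the deleted exon. The hepatocyte gene *Glul*, a Wnt target next to the central vein, fell from 293 ± 50.7 CPM in WT to 49.9 ± 4.46 CPM in KO (SD, *n*=3 each, adjusted *p*=0.000257, edgeR quasi-likelihood test). Alb, Apoa1 and 6 other hepatocyte markers summed to 58629 to 62714 CPM in WT and 53407 to 73856 CPM in KO libraries.

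**Figure D1:**
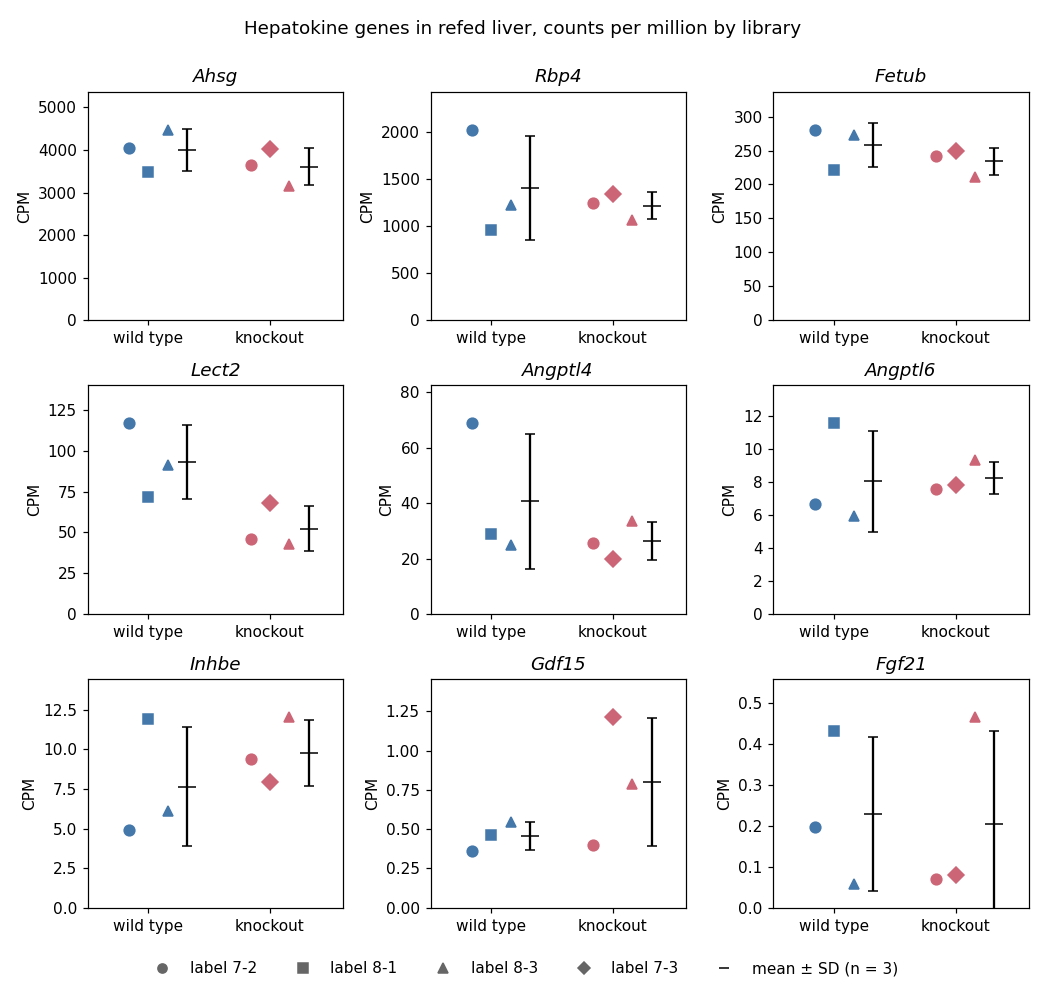
CPM (linear axis from 0, scaled to each gene) of the 9 hepatokine genes in the 3 WT (blue) and 3 KO (red) livers, with the marker shape giving the number in the library's label and the bars the mean ± SD. Only for *Lect2* do the genotypes not overlap, with 71.9 CPM as the lowest WT value and 68.0 CPM as the highest KO value; the lower SD bar of *Fgf21* in KO is cut at 0.

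Levels of different genes were compared by CPM per kilobase of canonical transcript. *Ahsg* was highest, at 2258 to 3213 CPM per kilobase over the 6 libraries, and *Rbp4* next, at 1026 to 2163. *Fetub* followed at 135 to 179 and *Lect2* at 49.0 to 132, and the ranges of the pair nearly touched. *Angptl4* (6.03 to 20.8) overlapped *Angptl6* (3.65 to 7.11), and *Inhbe* was at 0.925 to 2.26. *Gdf15* (0.188 to 0.632) and *Fgf21* (0.0612 to 0.484) were lowest and overlapped each other. The place of *Inhbe* rests on a canonical transcript of 5319 bases. With the 2447 bases that RefSeq gives its gene it would be at 2.01 to 4.92, which overlaps *Angptl6*.

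None of the 9 genes passed the edgeR quasi-likelihood test of KO against WT at an adjusted *p* under 0.05, against 0.448% of all tested genes (63 of 14076, 10 higher and 53 lower). DESeq2 called 1 of the 9, *Lect2*, as lower, against 3.26% of the genes it tested. At an unadjusted *p* under 0.05 in edgeR the count was again 1, *Lect2*, against 13.5% of all tested genes. *Lect2* was also the 1 member whose genotypes did not overlap, against 19.3% of all tested genes (10.2% higher and 9.08% lower in KO). With 9 genes, 1 member is near the share seen over all genes in the last 2 of these counts. Fold changes of 3 members were positive and of 6 negative, with a median log2 fold change of −0.15, where the median over all tested genes was −0.017.

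**Figure D2:**
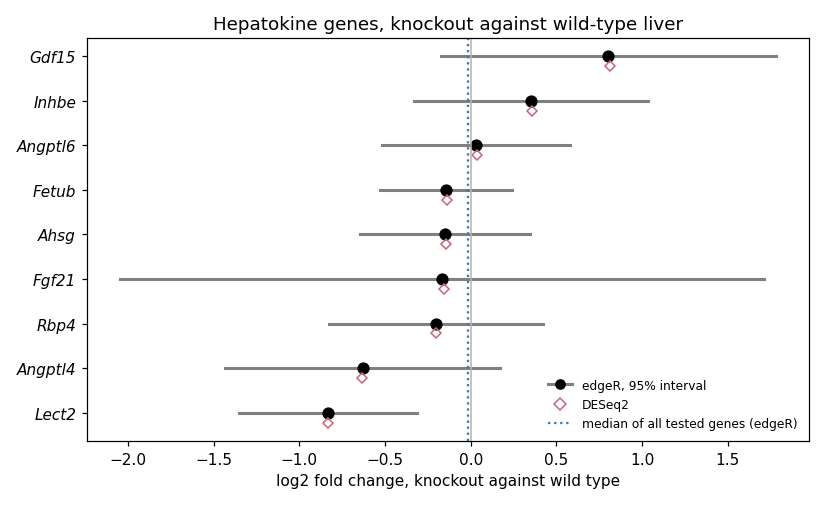
Log2 fold change of KO against WT for each hepatokine gene, with edgeR values and their 95% intervals as black points and lines, DESeq2 values as open diamonds and the median of all tested genes as a dotted line. The interval of *Lect2*, −1.35 to −0.32, is the 1 interval that leaves out 0, and that of *Fgf21*, −2.05 to 1.71, is the widest.

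*Lect2* (chromosome 13, 56529734 to 56548559, mm10) encodes leucocyte cell-derived chemotaxin 2, a plasma protein made by hepatocytes, and is known as a gene that β-catenin signalling raises in liver. Its level was 117, 71.9 and 91.0 CPM in WT 7-2, WT 8-1 and WT 8-3, from 7756, 6022 and 6193 counts. In KO 7-2, KO 7-3 and KO 8-3 it was 45.8, 68.0 and 43.2 CPM, from 3881, 5165 and 3720 counts. Every KO library lay below every WT library, although KO 7-3 came close to WT 8-1. The means were 93.2 ± 22.5 CPM in WT and 52.3 ± 13.6 CPM in KO (SD, *n*=3 each). On the log2 scale KO minus WT was −0.83 (SE 0.23, 95% interval −1.35 to −0.32), larger in size than that of 93.6% of tested genes. It missed the threshold with edgeR (adjusted *p*=0.171) and passed it with DESeq2 (adjusted *p*=0.0182). Over the other settings run, the edgeR and limma adjusted *p* ranged from 0.0775 to 0.493. Since no KO library reached a WT library, any split holding both genotypes gives a negative difference. Its size was −1.06 on the log2 scale among libraries whose label begins with 7 (1 WT and 2 KO). It was −0.90 among those whose label begins with 8 (2 WT and 1 KO).

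*Lect2* can also be set against other hepatokine genes of the same library, a measure that does not depend on scaling between libraries. For every 1000 *Ahsg* counts there were 28.8, 20.7 and 20.4 *Lect2* counts in WT 7-2, WT 8-1 and WT 8-3 and 12.5, 16.9 and 13.7 in KO 7-2, KO 7-3 and KO 8-3. The KO mean was 0.619 of the WT mean. Against 1000 *Fetub* counts it was 0.621 of it, with 326 to 416 *Lect2* counts in WT and 190 to 273 in KO libraries. Against 1000 *Rbp4* counts it was 0.618 of it, with 57.6 to 74.8 in WT and 36.8 to 50.5 in KO libraries. The genotypes did not overlap in any of the 3 ratios. The ratios share *Lect2*, which was singled out for its levels in these libraries, so they describe the same difference on another scale and were not taken as a test of it.

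**Figure D3:**
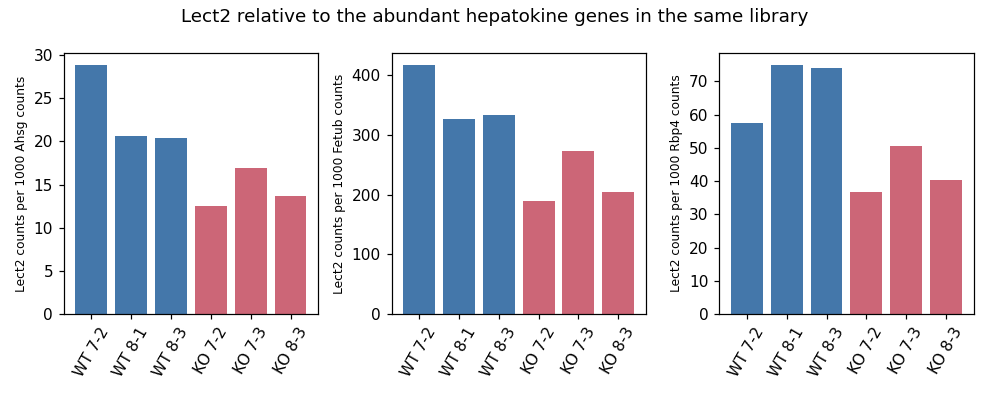
*Lect2* counts per 1000 counts of *Ahsg*, *Fetub* and *Rbp4* (panels from left to right, linear axes from 0) in each WT (blue) and KO (red) library. The lowest WT bar stands above the highest KO bar in each panel, for *Ahsg* at 20.4 against 16.9.

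Of the proteins reported to bind LECT2, the gene of the receptor tyrosine kinase MET was at 20.7 to 22.6 CPM in WT and 22.1 to 27.5 CPM in KO libraries (*Met*, log2 fold change 0.22, SE 0.14, adjusted *p*=0.518). *Tie1*, an endothelial receptor gene, was at 2.42 to 2.96 CPM in WT and 2.92 to 3.24 CPM in KO libraries (log2 fold change 0.21, SE 0.19, adjusted *p*=0.645, both with edgeR). *Cd209a* fell below the filter. Among 12 Wnt target and pericentral genes, 9 fell and 0 rose with edgeR, with a median log2 fold change of −2.39, which stayed at −2.39 with *Sp5*, at 0 counts in KO livers, placed at its bound from 3 counts over the group. *Oat*, of ornithine metabolism, was at 127 to 162 CPM in WT and at no more than 6.31 CPM in KO libraries (log2 fold change −5.04, SE 0.27, adjusted *p*=2.75e-05 with edgeR). *Lgr5*, the R-spondin receptor, was at 0.888 to 1.09 CPM in WT and 0.106 to 0.263 CPM in KO libraries (log2 fold change −2.34, SE 0.41, adjusted *p*=0.0460 with edgeR). The fold change of *Lect2* was thus smaller in size than the list's median.

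*Ahsg* and *Fetub* encode the 2 fetuins, cystatin-family plasma proteins, and are neighbours on mouse chromosome 16 (22892015 to 22899451 and 22918382 to 22939768, mm10). Fetuin-A binds calcium phosphate and inhibits the insulin receptor, and fetuin-B inhibits the egg-hardening protease ovastacin. *Ahsg* was at 4050.1, 3477 and 4472 CPM in WT 7-2, WT 8-1 and WT 8-3 and at 3657, 4016 and 3144 CPM in KO 7-2, KO 7-3 and KO 8-3. *Fetub* was at 280.5, 221 and 273 CPM in the WT libraries and at 241, 249 and 211 CPM in the KO libraries, in the same order. The genotypes overlapped for both genes, and WT 8-1 was the lowest WT library and KO 8-3 the lowest KO library in each. *Ahsg* had a fold change of −0.15 on the log2 scale (SE 0.22, 95% interval −0.64 to 0.34, adjusted *p*=0.802) and *Fetub* one of −0.14 (SE 0.17, −0.53 to 0.24, adjusted *p*=0.747, both with edgeR). The intervals leave out a fall by 1 on the log2 scale for either gene. Of all 119 other list genes, *Fetub* was nearest to *Ahsg* in its course over the 6 libraries, with a root mean square difference of 0.064 in gene-centred log2 CPM.

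Of 8 other cystatin-family and fetuin-target genes, none passed edgeR or DESeq2, and the median log2 fold change was −0.19. *Hrg*, for histidine-rich glycoprotein, was at 609 to 696 CPM in WT and 485 to 626 CPM in KO libraries (log2 fold change −0.30, SE 0.18, adjusted *p*=0.505, edgeR). *Tlr4*, for a receptor linked to fetuin-A, had the smallest *p* of the list, at 0, 15 and 4 counts in WT 7-2, WT 8-1 and WT 8-3 and 13, 38 and 17 counts in KO 7-2, KO 7-3 and KO 8-3, and the genotypes overlapped (log2 fold change 1.74, SE 0.87, adjusted *p*=0.417). *Kng1*, for kininogen, a further cystatin-family protein, differed less (log2 fold change −0.11, SE 0.19, adjusted *p*=0.832). *Insr*, the gene of the insulin receptor that fetuin-A acts on, was at 43.2 to 45.7 CPM in WT and 48.0 to 52.0 CPM in KO libraries (log2 fold change 0.16, SE 0.13, adjusted *p*=0.628). The genotypes did not overlap for *Insr*, but the change was small and did not pass.

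*Rbp4* (chromosome 19, 38116620 to 38125321, mm10) encodes the carrier of retinol in plasma, which circulates bound to transthyretin. It was at 2027, 961 and 1227 CPM in WT 7-2, WT 8-1 and WT 8-3 and at 1244.5, 1348 and 1069 CPM in KO 7-2, KO 7-3 and KO 8-3. The highest and the lowest of the 6 values were both WT, and the 3 KO values lay between them. KO against WT gave a log2 fold change of −0.20 (SE 0.28, 95% interval −0.83 to 0.42, adjusted *p*=0.784, edgeR). It turned to 0.16 without WT 7-2, and was −0.41 without WT 8-1. *Ttr*, for transthyretin, was at 3880 to 5279 CPM in WT and 3067 to 5426 CPM in KO libraries (log2 fold change −0.064, SE 0.27, adjusted *p*=0.946).

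Of the 10 tested genes of retinol transport and storage, 0 passed edgeR, with a median log2 fold change of −0.066. *Lrat*, which stores retinol as esters and marks stellate cells, was at 3.67 to 4.48 CPM in WT and 5.04 to 6.26 CPM in KO libraries (log2 fold change 0.39, SE 0.17, adjusted *p*=0.371, edgeR). The 7 stellate cell markers, *Lrat* among them, summed to 50.7 to 60.04 CPM in WT and 72.3 to 81.6 CPM in KO libraries. Of the 7, 5 had positive fold changes, and none was at 0. *Dcn* (log2 fold change 0.98, edgeR) and *Reln* (0.90) changed most. DESeq2 called these 2 as higher (adjusted *p*=0.00169 and 0.00720), against 3.26% of the genes it tested. No marker of the list passed edgeR. The sum thus does not show an even rise of the 7 markers. The stellate markers' part in the value of *Lrat* was not tested. In bulk liver, a change in the number of cells of a type and a change in RNA per cell cannot be told apart.

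*Angptl4* (chromosome 17, 33774900 to 33781575, mm10) encodes a secreted inhibitor of lipoprotein lipase that fasting and PPARα raise. Its level was 68.8, 28.7 and 24.8 CPM in WT 7-2, WT 8-1 and WT 8-3 and 25.6, 20.0 and 33.5 CPM in KO 7-2, KO 7-3 and KO 8-3. WT 7-2 stood far above the rest, and the other 5 overlapped. The difference on the log2 scale was −0.63 (SE 0.36, 95% interval −1.43 to 0.17, adjusted *p*=0.473 with edgeR and 0.364 with DESeq2). Without WT 7-2 it was −0.020 (adjusted *p*=0.977). Among the libraries labelled 7 the log2 difference was −1.59 and among those labelled 8 it was 0.32. The negative value thus rested on 1 WT library.

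Of 12 PPARα targets, 1 fell and 0 rose with edgeR, and the median log2 fold change was −0.0015. The 1 that fell was *Vnn1*, which encodes the pantetheinase vanin-1, at 6.83, 5.42 and 7.10 CPM in WT and 2.17, 1.94 and 3.11 CPM in KO libraries (log2 fold change −1.42, SE 0.22, adjusted *p*=0.0303). *Cyp4a10*, a fatty acid ω-hydroxylase gene, was at 715, 378 and 602 CPM in WT and 174, 358 and 213 CPM in KO libraries, and passed DESeq2 (adjusted *p*=0.00241) but not edgeR (0.159). *Acot1*, an acyl-CoA thioesterase gene, was at 0.514 to 2.47 CPM in WT and 0.0790 to 0.476 CPM in KO libraries, and likewise passed DESeq2 (adjusted *p*=0.0291) but not edgeR (0.247). WT 7-2, the library with the highest *Angptl4*, also had the highest *Cyp4a10* and *Acot1*. Of the 119 other list genes, *Cyp4a14* (0.19) and *Cyp4a10* (0.25) had the courses nearest to that of *Lect2* over the 6 libraries. These values are root mean square differences of gene-centred log2 CPM, and genes outside the lists were not compared.

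**Figure D4:**
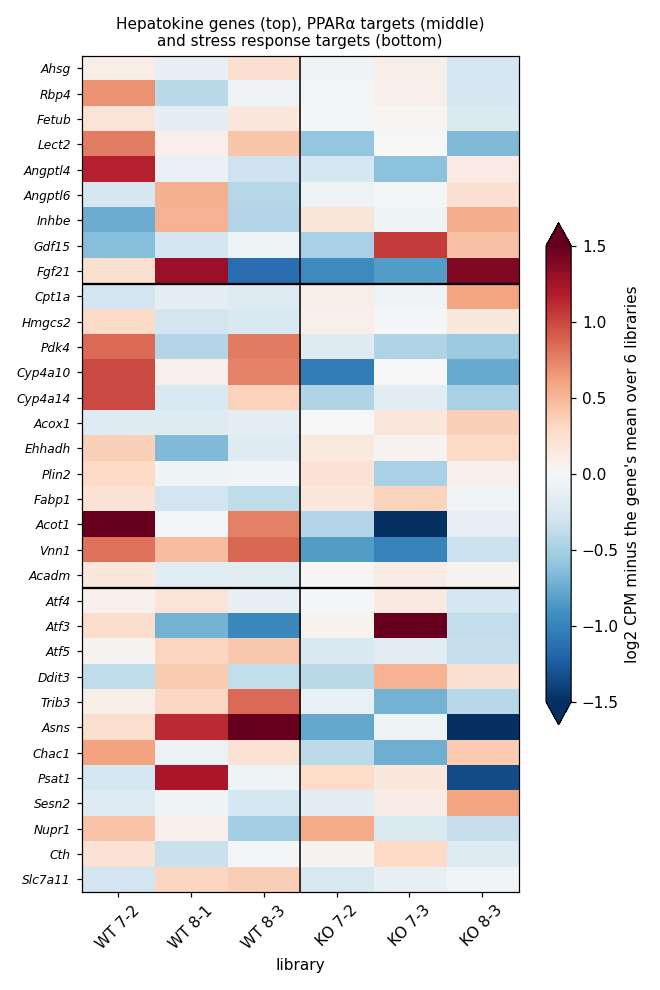
Log2 CPM minus each gene's mean over the 6 libraries (colour scale from −1.5 to 1.5) for the hepatokine genes, 12 PPARα targets and 12 targets of the integrated stress response, with WT libraries on the left. *Lect2* is blue or near white in all KO libraries, *Angptl4* is deep red in WT 7-2 alone, and *Fgf21* is deep red in WT 8-1 and KO 8-3, 1 library of each genotype.

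*Angptl6* (chromosome 9, 20873808 to 20879822, mm10) is a further angiopoietin-like gene whose product was linked to energy expenditure. It was at 6.68, 11.6 and 5.92 CPM in WT 7-2, WT 8-1 and WT 8-3 and at 7.56, 7.82 and 9.33 CPM in KO 7-2, KO 7-3 and KO 8-3. The KO values lay within the WT range, with a log2 fold change of 0.031 (SE 0.24, 95% interval −0.51 to 0.58, adjusted *p*=0.968, edgeR). Of the 7 angiopoietin-like genes, *Angptl4* and *Angptl6* among them, 0 passed edgeR and 1, *Angptl2*, was higher with DESeq2, with a median log2 fold change of 0.31. *Angptl2* was at 1.46 to 1.56 CPM in WT and 2.44 to 2.92 CPM in KO libraries (log2 fold change 0.86, SE 0.21, adjusted *p*=0.132 with edgeR and 0.0198 with DESeq2).

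ANGPTL8 takes part in the inhibition of lipoprotein lipase in the fed state. *Angptl8*, listed in the files as *Gm6484*, was at 14.3, 31.9 and 8.07 CPM in WT 7-2, WT 8-1 and WT 8-3 and at 11.6, 45.6 and 20.2 CPM in KO 7-2, KO 7-3 and KO 8-3 (log2 fold change 0.51, SE 0.53, adjusted *p*=0.699 with edgeR). The spread of *Angptl8* within each genotype was larger than the difference between them. *Lpl*, the lipase gene itself, was at 49.0, 23.9 and 54.2 CPM in the WT and 21.8, 19.3 and 43.4 CPM in the KO libraries (log2 fold change −0.59, SE 0.36, adjusted *p*=0.495). Of the 11 genes of lipoprotein lipase control, 0 passed edgeR, and the median log2 fold change was 0.14. DESeq2 called 1 as higher, *Lipg*, which encodes endothelial lipase, at 1.71 to 2.66 CPM in WT and 3.45 to 7.08 CPM in KO libraries (log2 fold change 1.13, SE 0.30, adjusted *p*=0.0139 with DESeq2 and 0.162 with edgeR).

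*Fgf21* (chromosome 7, 45613890 to 45615490, mm10), the gene of the fasting and stress hormone of the liver, was near the floor of detection in these refed livers. It had 13, 36 and 4 counts in WT 7-2, WT 8-1 and WT 8-3 and 6, 6 and 40 counts in KO 7-2, KO 7-3 and KO 8-3. That gave 0.196, 0.430 and 0.0588 CPM in WT and 0.0708, 0.0790 and 0.464 CPM in KO libraries. One library of each genotype was high and the genotypes overlapped over their whole range. KO against WT was −0.17 on the log2 scale (SE 0.84, 95% interval −2.05 to 1.71, adjusted *p*=0.956, edgeR), and differences within that interval cannot be told from 0 with the spread between these libraries. It ran from −1.61 without KO 8-3 to 0.70 without WT 8-1.

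Of 11 genes of FGF21 receptors and regulators, none passed edgeR or DESeq2, and the median log2 fold change was 0.18. *Klb*, the gene of the co-receptor β-Klotho, was at 7.28 to 7.69 CPM in WT and 5.70 to 7.48 CPM in KO libraries (log2 fold change −0.15, SE 0.16, adjusted *p*=0.696). *Fgfr2* was at 17.9 to 22.3 CPM in WT and 25.3 to 30.3 CPM in KO libraries (log2 fold change 0.41, SE 0.15, adjusted *p*=0.280). *Fgfr3* was at 7.03 to 8.15 CPM in WT and 8.71 to 10.3 CPM in KO libraries (log2 fold change 0.33, SE 0.15, adjusted *p*=0.373, all with edgeR). Both receptor genes were higher in every KO than in every WT library, as were 4 of the 11 listed genes against 10.2% of all tested genes, and neither passed the test. The bile acid receptor gene *Nr1h4* was likewise higher in each KO library (log2 fold change 0.28, SE 0.16, adjusted *p*=0.480).

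*Gdf15* (chromosome 8, 70629393 to 70632470, mm10) encodes a member of the TGF-β superfamily that rises with cell stress. It had 24, 39 and 37 counts in WT 7-2, WT 8-1 and WT 8-3 and 34, 92 and 68 counts in KO 7-2, KO 7-3 and KO 8-3. As CPM these were 0.361, 0.466 and 0.544 in WT and 0.401, 1.21 and 0.789 in KO. KO 7-3 and KO 8-3 lay above all WT libraries and KO 7-2 lay within them. The log2 fold change of 0.80 was the largest positive value among the 9 genes but did not pass (SE 0.44, 95% interval −0.17 to 1.78, adjusted *p*=0.454 with edgeR and 0.444 with DESeq2). Without KO 7-3 it was 0.38, and without KO 7-2 it was 1.12. The genes of its receptor, *Gfral*, and of the co-receptor *Ret* had 0 counts in all 6 libraries.

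*Inhbe* (chromosome 10, 127349402 to 127351848, mm10) encodes the β-E subunit of activin E. It was at 4.92, 11.9 and 6.10 CPM in WT 7-2, WT 8-1 and WT 8-3, from 327, 998 and 415 counts. In KO 7-2, KO 7-3 and KO 8-3 it was at 9.38, 7.92 and 12.0 CPM, from 794, 601 and 1037 counts. All KO libraries lay above WT 7-2 and WT 8-3, while WT 8-1 lay above 2 of the 3 KO libraries. Its log2 fold change was 0.35 (SE 0.31, 95% interval −0.33 to 1.04, adjusted *p*=0.639, edgeR) and rose to 0.84 without WT 8-1 (adjusted *p*=0.163), the library with the most counts and the largest *Mup* share. It was 0.12 without WT 7-2. Of the 119 other list genes, *Acvr1b*, an activin receptor gene, had the course nearest to that of *Inhbe* (root mean square difference 0.17 in gene-centred log2 CPM).

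Of 14 tested genes of the activin and inhibin pathway, none passed edgeR or DESeq2, and the median log2 fold change was 0.093. *Inhbc*, the neighbouring liver subunit gene, was at 18.4 to 25.8 CPM in WT and 13.8 to 20.3 CPM in KO libraries (log2 fold change −0.33, SE 0.19, adjusted *p*=0.488). *Inhba* was at 0.441 to 0.776 CPM in WT and 0.766 to 1.56 CPM in KO libraries (log2 fold change 0.93, SE 0.36, adjusted *p*=0.310). The receptor genes *Acvr1* (log2 fold change 0.41, adjusted *p*=0.344) and *Acvr2a* (0.33, adjusted *p*=0.360) were higher in every KO library than in any WT library, without passing edgeR. Over the list this held for 3 of the 14 genes, against 10.2% of all tested genes. *Acvr1c*, the receptor that activin E acts on in fat, was at no more than 0.271 CPM in any library. Adipocyte markers summed to at most 0.147 CPM, with 1 of 5 at 0 in all libraries.

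*Fgf21*, *Gdf15*, *Inhbe* and the upstream letters shown for *Fgf21* and *Inhbe* are tied to the integrated stress response, in which ATF4 raises amino acid and stress genes. Of its 12 listed targets, none passed edgeR or DESeq2, 3 were lower in every KO than in every WT library, against 9.08% of all tested genes, and the median log2 fold change was −0.20. *Asns*, for asparagine synthetase, was at 4.41, 8.08 and 10.6 CPM in WT and 2.17, 3.52 and 0.894 CPM in KO libraries (log2 fold change −1.81, SE 0.45, adjusted *p*=0.140 with edgeR and 0.0912 with DESeq2). *Atf5* was at 122 to 158 CPM in WT and 93.6 to 106 CPM in KO libraries (log2 fold change −0.51, SE 0.16, adjusted *p*=0.221, edgeR). *Trib3*, a pseudokinase gene, was at 2.23 to 3.79 CPM in WT and 1.28 to 1.94 CPM in KO libraries (log2 fold change −0.85, SE 0.27, adjusted *p*=0.223). Over the whole list, 5 fold changes were positive and 7 negative. *Atf3* was at 0.338 to 0.828 CPM in WT and 0.522 to 2.32 CPM in KO libraries, with the highest value in KO 7-3, as for *Gdf15* (log2 fold change 1.17, SE 0.58, adjusted *p*=0.417, edgeR). *Ddit3*, for the stress factor CHOP, had a positive value too (log2 fold change 0.23, SE 0.29, adjusted *p*=0.753). It was the list gene whose course was nearest to that of *Gdf15* (root mean square difference 0.40 in gene-centred log2 CPM).

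Among 20 other tested genes of liver-secreted hormones and carriers, 1 rose with edgeR and 0 fell, with a median log2 fold change of 0.039. The 1 was *Hamp*, which encodes the iron hormone hepcidin. *Hamp* was at 52.0, 89.3 and 64.1 CPM in WT 7-2, WT 8-1 and WT 8-3 and at 199.9, 321 and 186 CPM in KO 7-2, KO 7-3 and KO 8-3 (log2 fold change 1.78, SE 0.27, adjusted *p*=0.0273). DESeq2 also called *Gdf2*, for bone morphogenetic protein 9, at 1.94 to 2.62 CPM in WT and 3.35 to 4.12 CPM in KO libraries (log2 fold change 0.75, SE 0.20, adjusted *p*=0.0460 with DESeq2 and 0.163 with edgeR). *Gdf2* is known mainly from stellate cells, whose markers summed higher in every KO than in every WT library, with *Dcn* and *Reln* changing most. The stellate markers' part in the value of *Gdf2* was not tested. *Igfbp1*, the insulin-suppressed binding protein gene, was at 54.1, 18.4 and 25.4 CPM in WT and 9.72, 22.2 and 9.03 CPM in KO libraries (log2 fold change −1.26, SE 0.43, adjusted *p*=0.257, edgeR). *Igf1*, the growth hormone-dependent hormone gene, was at 517 to 532 CPM in WT and 433 to 665 CPM in KO libraries (log2 fold change 0.036, adjusted *p*=0.960).

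**Figure D5:**
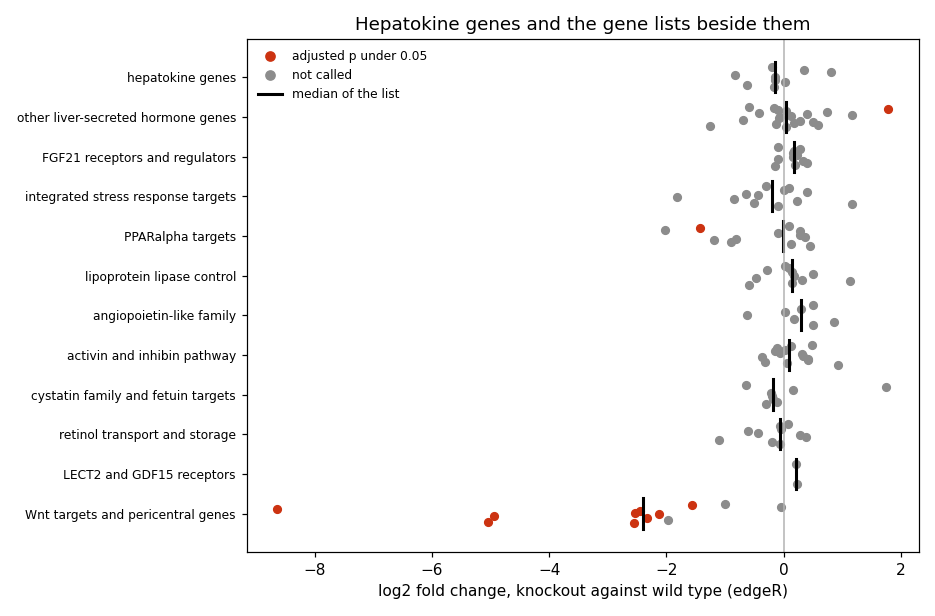
Log2 fold change of KO against WT (edgeR) for every tested gene of the hepatokine list and of the lists beside it, with red points for an adjusted *p* under 0.05, grey points for the others and black bars for each list's median. No hepatokine gene is red, 9 of 12 Wnt target and pericentral genes are red on the left, and the leftmost point, *Sp5*, had 0 counts in KO livers, so that its fitted value is no bound.

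The remaining cell markers were read beside the hepatokine values. Sinusoidal endothelial markers summed to 55.5 to 63.8 CPM in WT and 72.0 to 75.4 CPM in KO libraries, with positive fold changes for 7 of 7. Kupffer cell markers summed to 70.0 to 85.5 CPM in WT and 56.7 to 73.1 CPM in KO libraries. None of these markers passed edgeR and none was at 0 in all libraries. Their part in the results was not tested. The summed hepatocyte markers overlapped between the genotypes and 0 of the 8 passed edgeR. *Cps1* (1298 to 1639 CPM in WT and 1775 to 1819 CPM in KO libraries) and *Cyp3a11* (645 to 1135 and 1472 to 1973 CPM) did not overlap. These were 2 of the 8 markers, both higher in KO, against 10.2% of all tested genes. DESeq2 called 1 of the 8, *Cyp3a11*, as higher (adjusted *p*=0.00464), against 3.26% of the genes it tested. The hepatocyte markers' part in the value of *Lect2* was not tested.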

How the data were processed

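Liver mRNA of 3 WT and 3 KO mice was sequenced with a directional library kit. For each library the authors deposited a table of raw gene counts, obtained from unique and multiple alignments with Bedtools coverage on mm10, and the submitters' processing notes name TopHat, with no version. The gene annotation is not given in the sources used here. Genes with near-identical copies, such as the *Mup* family, may share counts. The study's methods go on to a quantile normalisation, but these counts are whole and their totals unequal (60619938 to 133384586 per library), so it was not yet applied. Each of the 23282 rows names a gene, and 35 symbols name more than 1 row, none of them a hepatokine gene. Of the row accessions, 23012 are in RefSeq, which gave coordinates. Libraries were treated as separate mice, which the labels show only by number, so *p* values measure the spread between these libraries. Between any 2 libraries, chi-square per degree of freedom was at least 162, so none was a copy of another.

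KO and WT were compared in R 4.3.3 by the quasi-likelihood test of edgeR 4.0.16 (with limma 3.58.1), using TMM factors and filterByExpr at min.count 10 and min.total.count 15. Adjusted *p* values follow Benjamini-Hochberg over all 14076 tested genes, and a gene is called under 0.05. The SE is the log2 fold change divided by the square root of F. Differences within a leading label number used log2(CPM + 0.5). Likeness of courses used log2 CPM with a prior count of 2 and was measured among list genes only. Transcript lengths are those of GENCODE canonical transcripts (GRCm39), used for lengths only. The alternatives were DESeq2 1.42.0, limma-voom, quantile-normalised log2 counts with limma, upper-quartile and RLE factors, library sizes alone, scaling without *Mup* genes, other filters, each library left out and a replicate block, in 17 settings. The fitting code was tested on simulated data. *Fgf21* and *Gdf15* rest on 4 to 92 counts per library, and reads carry no molecular identifiers.

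Members and lists were chosen with earlier results of these data known. Named genes are the 9 members, in each list those called or up to 3 with the smallest *p*, a set of partners, receptors and relatives of members (*Klb*, *Ttr*, *Lpl*, *Angptl8*, *Inhbc*, *Acvr1c*, *Kng1*, *Hrg*, *Igfbp1* and *Glul*), and the genes with the nearest course. *Atf3*, *Cps1*, *Cyp3a11*, *Gdf2*, *Igf1* and *Tcf7l2* were named after their values were seen. Some genes that this rule takes are not reported here.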

Additional observations from a re-analysis of the deposited data

How the results depend on the processing

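*Lect2* was lower in KO under all 17 alternatives, with a log2 fold change from −1.21 to −0.28. Only DESeq2 called it, which made 1 hepatokine gene called lower (adjusted *p*=0.0182). Leaving out 1 library gave −1.07 to −0.63. Library sizes alone moved the median of all tested genes to 0.61, with 3024 calls (2936 higher and 88 lower) against 63 with TMM factors. On that scale 2 hepatokine genes were called higher, *Gdf15* (1.40, adjusted *p*=0.0334) and *Inhbe* (1.09, adjusted *p*=0.0184), and the values of *Fgf21* (0.57), *Ahsg* (0.45), *Fetub* (0.45) and *Rbp4* (0.34) turned positive, each of these 4 below the shifted median. *Lect2* lay 0.90 below it. The number of all genes called was 440 with DESeq2, 96 with no filter on low counts, 39 with the leading label number as a replicate block, and from 24 (without WT 8-1) to 87 (without WT 7-2) when 1 library was left out.

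No label says what the numbers mean, so the mice were not paired by them in the main test. Only 2 numbers are shared between genotypes. Same-numbered libraries did not deviate together (correlations 0.0079 and −0.0069), but 2 such values cannot decide whether those mice belong together. With a replicate block on the full number, *Lect2* was at −1.21 (edgeR adjusted *p*=0.0775), 49 genes were called, and *Fgf21* turned to 0.77. Leaving out 1 library gave −1.61 to 0.70 for *Fgf21*, −0.15 to 0.39 for *Angptl6* and −0.41 to 0.16 for *Rbp4*. The cause of these shifts was not tested. *Fgf21*, with 4 to 40 counts, changed sign under 5 of the 17 alternatives.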
